A study of Homo sapiens with 24 samples.

Results

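Transcripts of 22Rv1DR cells given the siPOM121 siRNA named construct 1 were compared with those of 22Rv1DR control cells, across all genes. The comparison holds 8 of the 24 samples of the study, which are 4 of its 12 libraries, each read on 2 lanes. Lanes of a library were averaged, so each group had 2 libraries: 4A and 5A for the control, 4B and 5B for construct 1. 22Rv1 is a human prostate cancer line, and 22Rv1DR is described in the labels as an aggressive subline of it; how the subline was obtained is not given in the sources used here. All 22Rv1DR cells were grown in the same serum-containing RPMI medium, the siRNA was a Silencer Select reagent, the time from siRNA to harvest is not given in the sources used here, and the labels name the control arm only as Control. The labels also call the siRNA arms a knockout, although an siRNA lowers a transcript and does not delete a gene. Where construct 1 is set against something else, this is construct 2, another siPOM121 siRNA in 22Rv1DR (libraries 4C and 5C), or construct 1 in DU145DR (controls 1A and 2A, construct 1 libraries 1B and 2B), an aggressive subline of DU145, another human prostate cancer line. Whether the libraries of a group stem from separate cultures is not stated, so the p-values reflect only how far these libraries vary, which may be technical.

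POM121 is an integral membrane protein of the nuclear pore complex, the channel through which proteins and RNA pass between cytoplasm and nucleus. It helps to anchor and assemble the pore in the nuclear envelope. Importins carry proteins with a nuclear localization signal inwards through the pore and exportins carry cargo out, with the small GTPase Ran giving the direction. In prostate cancer, POM121 has been studied for its bearing on the nuclear import of transcription factors such as E2F1, MYC and GATA2.

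Levels were given as log2 FPKM (fragments scaled by transcript length and by library size) with a floor at 1 FPKM, so a gene at or under the floor is listed at 0. The depth of the samples is unknown. The summed FPKM of the 4 libraries lay between 411056 and 420784. Ribosomal protein genes took 15.1% and 14.9% of it in 4A and 5A and 17.0% and 16.5% in 4B and 5B. The construct 2 libraries stood apart from the rest: the median absolute log2 difference between 4C and 5C was 0.15, against 0.04 to 0.06 between the libraries of every other group, and their ribosomal protein shares were 18.5% and 12.2%. Every group shares 1 estimate of spread in the fit, so these libraries also widen the error of the comparison with control. Library 4A came from lanes 1 and 2, whereas 5A, 4B and 5B came from lanes 3 and 4, so leaving out 4A keeps the comparison within 1 pair of lanes.

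The cells carried markers of luminal prostate cells. HOXB13, a prostate lineage transcription factor, was at 36.3 and 38.7 FPKM in the controls and 35.7 and 35.3 FPKM with construct 1, and FOXA1, a luminal pioneer factor, was at 71.5 and 68.8 and then 67.7 and 68.2 FPKM. Of 23 markers of stromal, endothelial and blood cells, 20 were at the floor on all 8 lanes. The other 3 were LUM, which was at 42.6 FPKM in each control and at 45.3 and 48.2 FPKM with construct 1, ACTA2, and CD68. CD68 was at 1.61 and 1.88 FPKM in the controls and at 2.53 and 2.48 FPKM with construct 1 (log2 fold change 0.52, adjusted p = 0.00314). The summed level of the whole marker list was 47.9 and 48.3 FPKM in the controls and 51.6 and 54.6 FPKM with construct 1, and its part in the results below was not tested.

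POM121 itself was at 38.5 and 37.8 FPKM in the controls and at 7.68 and 7.81 FPKM with construct 1. It fell by 2.30 on the log2 scale (± 0.06 SE, n = 2 libraries per group, limma with Benjamini-Hochberg adjustment, adjusted p = 4.57e-08). POM121C, a near-identical copy of POM121, was at 26.3 and 27.0 FPKM in the controls and 4.61 and 4.65 FPKM with construct 1 (log2 fold change -2.53 ± 0.07, adjusted p = 8.32e-08). Every construct 1 lane lay below every control lane for both genes, as for 26.7% of all tested symbols. Because the paralogs are so alike, how reads were shared between them is uncertain, and their changes cannot be told apart. With construct 2 POM121 was at 6.73 and 7.43 FPKM, and the difference between the constructs in POM121 was 0.13 ± 0.06 with an adjusted p of 0.153.

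Across all genes, 13622 symbols were tested, of which 12705 were above the floor on a lane of the 4 libraries. At an adjusted p under 0.05, 1631 symbols were higher with construct 1 (12% of those tested) and 2066 were lower (15.2%). Leaving out 4A gave 1083 and 1267 calls, 5A 870 and 1216, 4B 895 and 1033, and 5B 761 and 1245. Leaving out 4C gave 2642 and 3232, and leaving out 5C gave 2643 and 3232. Most changes were small: the median log2 fold change was 0.33 among symbols called higher and -0.35 among those called lower, and only 24 higher and 34 lower symbols changed by at least 2-fold. Every construct 1 lane lay above every control lane for 1535 of the 1631 and below for 1971 of the 2066, where 21.9% and 26.7% of all tested symbols had lanes that did not overlap in that way. The share called lower differed with the level and did not follow one order: it was 11.5% of 3796 symbols at 1 to 5 FPKM, 16.7% of 5192 at 5 to 20 FPKM, 21.8% of 3058 at 20 to 100 FPKM and 14.4% of 659 at 100 FPKM or more. The shares called higher in these classes were 14.4%, 13.1%, 11.1% and 10.3%. Median GC content was 43.8% for symbols called higher, 51.1% for those called lower and 48.4% for all above the floor, and its part in the calls was not tested.

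**Figure D1:**
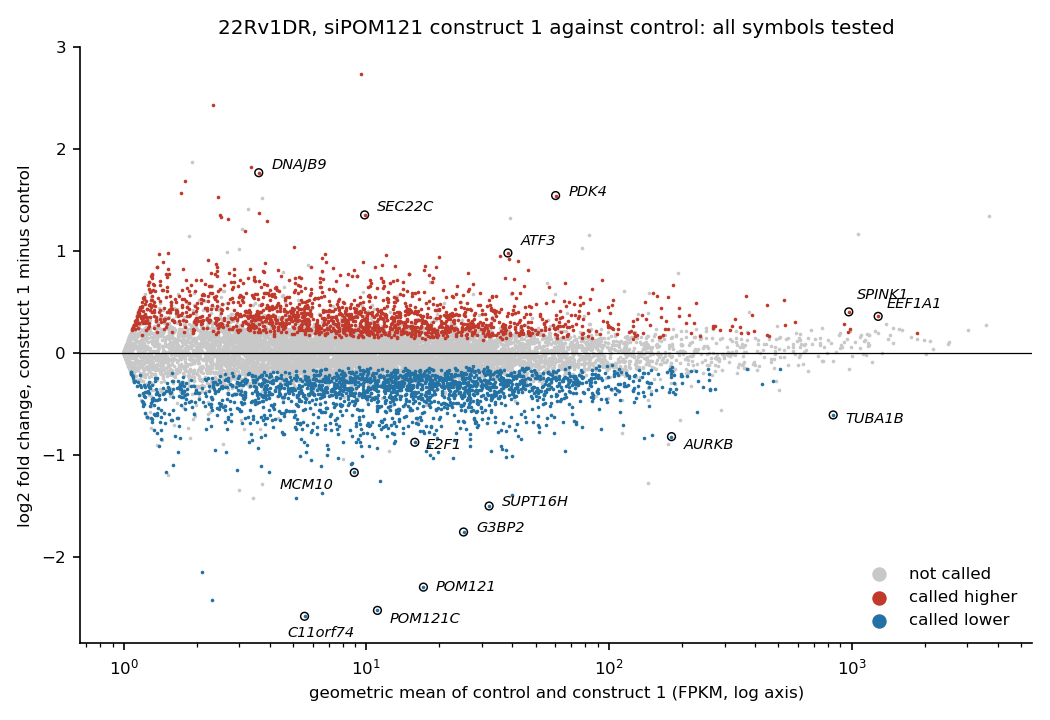
Each point is a symbol tested, with its mean level in control and construct 1 libraries (FPKM, log axis) against its log2 fold change, construct 1 minus control, in 22Rv1DR. Colours mark symbols called higher or lower, out of 1631 and 2066 in all. Symbols that were all-or-none between lanes, 13 of them called, and those at the floor in both groups are left out. POM121 and POM121C lie near the bottom with log2 fold changes of -2.30 and -2.53, PDK4 and SEC22C above 0 at 1.54 and 1.35, and most called symbols lie within 1 log2 unit of 0.

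Genes of several functions had high fold changes. PDK4, a kinase that shuts pyruvate dehydrogenase and so spares glucose, was at 36.3 and 34.4 FPKM in the controls and at 101 and 105 FPKM with construct 1 (log2 fold change 1.54 ± 0.07, adjusted p = 4.11e-06). SEC22C, a vesicle trafficking protein, was at 6.34 and 5.98 FPKM and then at 14.9 and 16.6 FPKM (1.35 ± 0.06, adjusted p = 3.06e-06). No control lane of either gene reached the lowest construct 1 lane, which the rule that named them required. CDKN1C, which encodes the CDK inhibitor p57, rose by 0.96 ± 0.13, TP53INP1, a p53-induced nuclear protein, by 0.96 ± 0.13, and NDRG1, a gene induced by hypoxia and by androgen, by 0.95 ± 0.05. ARRDC3, an arrestin-domain protein, rose by 0.93 ± 0.10 from 4.88 and 4.61 FPKM to 8.89 and 9.15 FPKM. CYP1A1, a xenobiotic-metabolizing enzyme induced through the aryl hydrocarbon receptor, was at 14.5 and 14.4 FPKM and then at 28.3 and 27.1 FPKM (0.94 ± 0.14), but its adjusted p was 0.0511 when 0.5 FPKM was added before the log2. VIL1, the actin-bundling protein villin, had a log2 fold change of 1.04 ± 0.30 with an adjusted p of 0.0300, and that call was lost without any 1 of 4A, 5A, 4B and 5B.

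Besides the POM121 pair, genes of several functions had low fold changes. C11orf74 was at 14.6 and 12.7 FPKM in the controls and at 2.49 and 2.07 FPKM with construct 1 (-2.59 ± 0.15, adjusted p = 9.53e-06). G3BP2, an RNA-binding protein of stress granules, was at 47.8 and 44.8 FPKM and then at 13.4 and 13.9 FPKM (-1.76 ± 0.09, adjusted p = 5.57e-06). SUPT16H, the large subunit of the histone chaperone FACT, was at 54.1 and 53.9 FPKM and then at 18.6 and 19.5 FPKM (-1.50 ± 0.13, adjusted p = 7.36e-05). The lanes of the groups did not overlap in these 3 genes, but the rule that named them required this. UBR1, a ubiquitin ligase that reads destabilizing N-terminal residues, was at 8.45 and 8.34 FPKM in the controls and 2.96 and 3.29 FPKM with construct 1, a log2 fold change of -1.43 ± 0.10. ESYT1, a tether between endoplasmic reticulum and plasma membrane, fell by 1.39 on the log2 scale from 63.5 and 65.1 FPKM to 24.0 and 25 FPKM. RAD54L, RFWD3 and MCM10, which act on DNA, were also among the lowest and are described with their pathways. OAS3, an enzyme that makes the 2-5A signal in the interferon response, was at 9.70 and 9.45 FPKM and then at 4.48 and 4.41 FPKM (-1.11 ± 0.06, adjusted p = 9.76e-06), and SMKR1 was at 12.3 and 13.0 FPKM and then at 6.0 and 5.90 FPKM.

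Among the largest rises in absolute level, EEF1A1, the translation elongation factor, was at 1162 and 1114 FPKM in the controls and 1460 and 1455 FPKM with construct 1, but its adjusted p was 0.542 under quantile normalization. SPINK1, a secreted trypsin inhibitor that some prostate cancers make in large amounts, was at 856 and 840 FPKM and then at 1114 and 1127 FPKM, a rise of 0.40 ± 0.04 on the log2 scale (adjusted p = 0.000112). ECH1, an auxiliary enzyme of fatty acid oxidation, rose by 0.51 ± 0.06 from 425 and 459 FPKM to 628 and 634 FPKM. The largest falls were in TUBA1B, the main alpha-tubulin, at 1038 FPKM in each control and 681 and 680 FPKM with construct 1 (-0.61 ± 0.09), AURKB, KIF22, TUBB4B, CCND1 and PCNA. TUBA1B and AURKB were past the threshold in the 12-library fit and had adjusted p values of 0.0699 and 0.0646 in a fit of the 6 22Rv1DR libraries alone. Reads of tubulin genes and of EEF1A1 can be shared with near-identical copies, so their levels are uncertain.

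The genes were then grouped into 57 lists of pathways and cell types with 1353 distinct symbols, 1241 of them tested. Over all symbols tested the median log2 fold change was 0.00, with 12% called higher and 15.2% called lower, and each list is read against those values. The largest block of change was the cell cycle. Of 226 tested genes in 11 lists of DNA replication, nucleotide synthesis, recombination, cyclins, CDK inhibitors and mitosis, 179 were called lower, 7 were called higher and 206 had a negative log2 fold change, with a median of -0.53. The 179 include RFC4, which was listed at 0 with construct 1. When 1 of 4A, 5A, 4B and 5B was left out 157 to 164 were called lower, and 119 were in the 22Rv1DR libraries alone. RNA from bulk samples cannot tell apart fewer cells in a cell cycle phase and less RNA per cell.

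**Figure D2:**
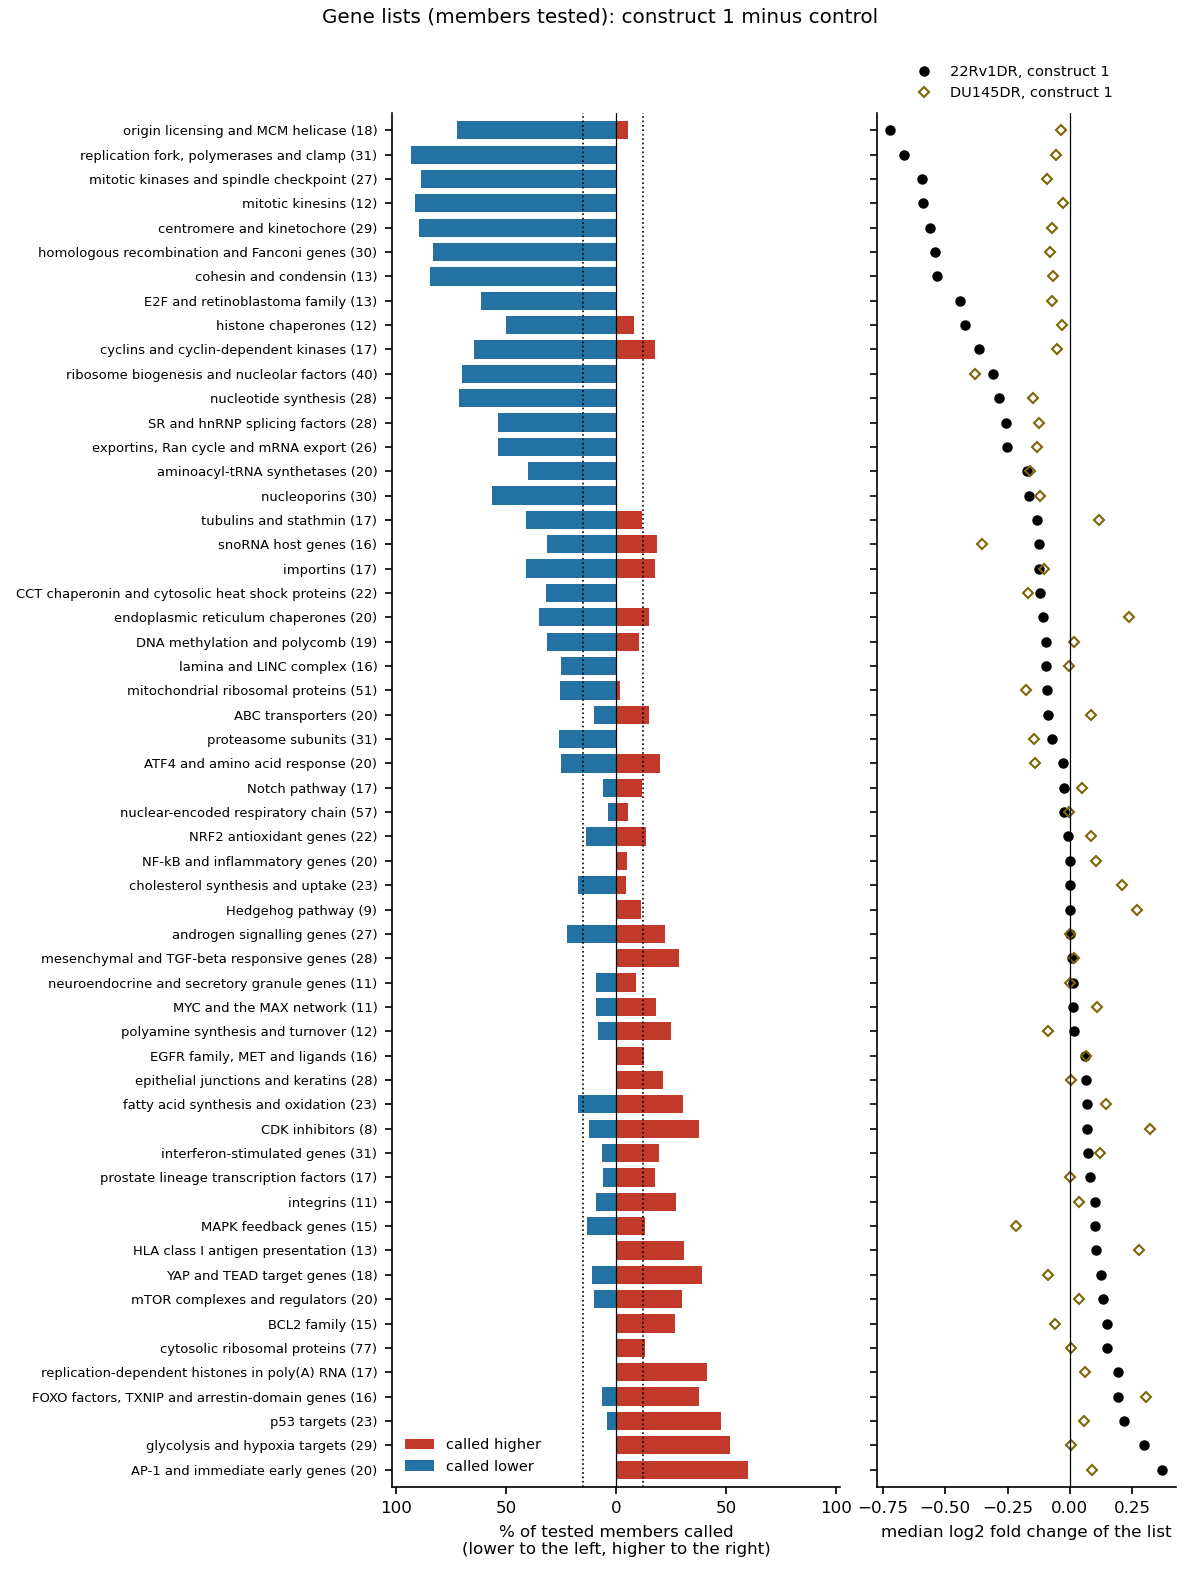
Left, the share of each list's tested members called lower (to the left, blue) and higher (to the right, red) with construct 1 in 22Rv1DR, with dotted lines at 15.2% and 12% of all symbols; right, the list's median log2 fold change with construct 1 in 22Rv1DR (filled circles) and DU145DR (open diamonds). The lists of replication and mitosis fill the top with medians down to -0.72, and the AP-1, glycolysis and p53 lists lie at the bottom with medians of 0.37, 0.30 and 0.22.

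Transcription factors of the E2F family switch on S-phase genes, and retinoblastoma proteins hold them in check. Of 13 tested genes of the E2F and retinoblastoma families 8 were called lower and none was called higher, with a median log2 fold change of -0.44. E2F1, an activator, was at 20.7 and 22.3 FPKM in the controls and at 11.9 and 11.5 FPKM with construct 1 (-0.88 ± 0.07, adjusted p = 3.61e-05). E2F2, a second activator, was at 11.9 and 12.9 FPKM and then at 7.07 and 7.14 FPKM (-0.80 ± 0.05, adjusted p = 1.78e-05). E2F8, an atypical repressor that is itself an E2F target, was at 5.94 and 5.95 FPKM and then at 2.51 and 2.78 FPKM (-1.17 ± 0.08, adjusted p = 2.85e-05). RBL1, the pocket protein p107, was at 4.40 and 4.61 FPKM and then at 3.08 and 3.14 FPKM. In these 4 genes no construct 1 lane overlapped a control lane, as in 1971 of the 2066 symbols called lower. Of all tested symbols 26.7% were separated in this direction. The 5 members that were not called included E2F5, another repressor, which was at 2.74 and 1.61 FPKM and then at 3.67 and 4.89 FPKM (1.02 ± 0.52, adjusted p = 0.203; named after its values were seen). Without the construct 2 libraries 1 gene of the list was called higher. MYC, by contrast, was at 86.1 and 87.4 FPKM in the controls and 78.9 and 79.5 FPKM with construct 1, a log2 fold change of -0.13 ± 0.13 (adjusted p = 0.496). GATA2, a transcription factor of luminal prostate cells, was at 52.8 and 54.3 FPKM and then at 60.6 and 62.1 FPKM (0.20 ± 0.12, adjusted p = 0.274). Neither MYC nor GATA2 passed the test in the 12-library fit. In the control and construct 1 libraries of 22Rv1DR alone both passed, MYC with an adjusted p of 0.0218 and GATA2 with 0.0345. GATA2 was called in 5 of 27 alternatives, among them those without 4C or without 5C, and MYC in 1.

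**Figure D3:**
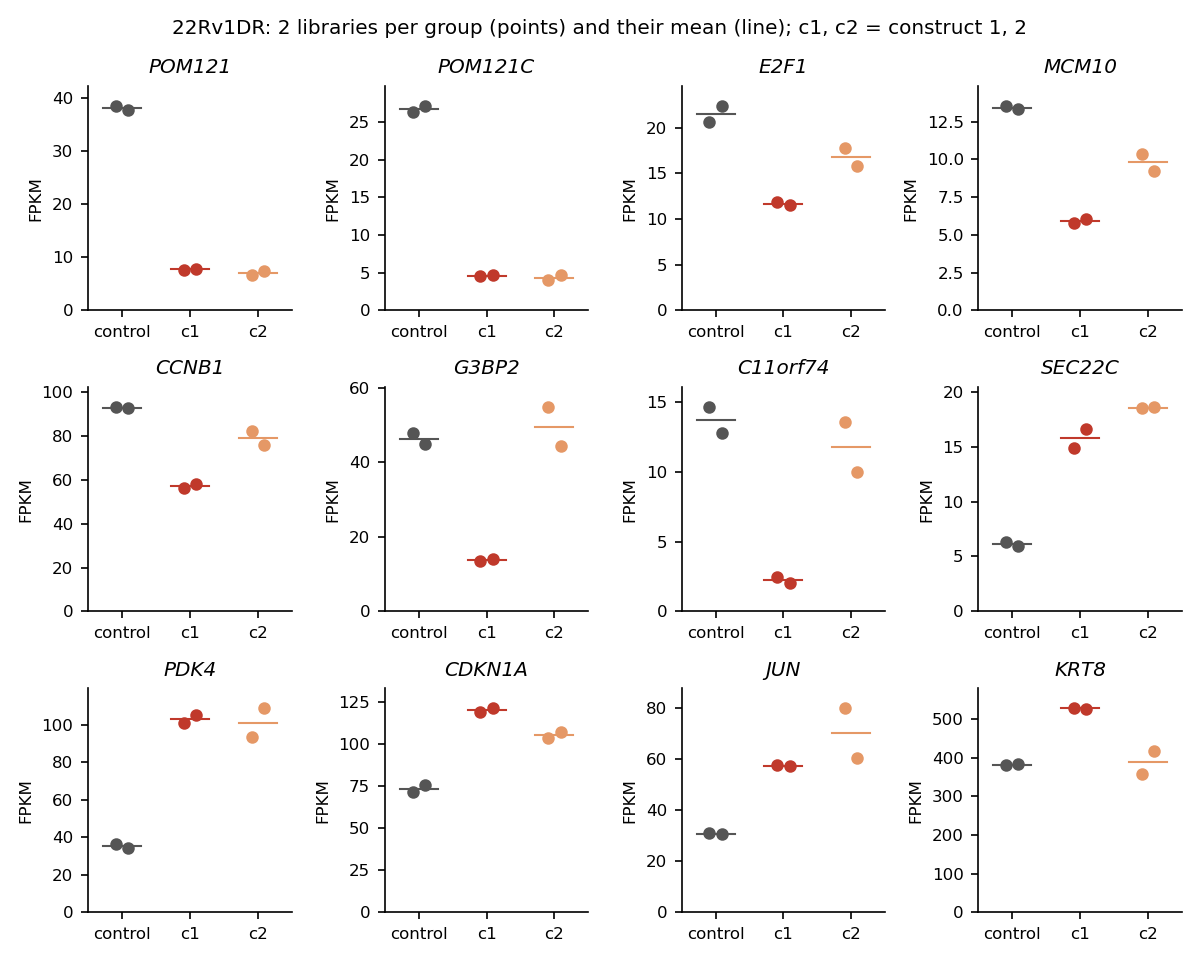
FPKM of 12 genes in the 22Rv1DR libraries, 2 points per group (control, construct 1 as c1, construct 2 as c2) with the group's mean as a line, each panel starting at 0. POM121 and POM121C are low with either construct, G3BP2 and C11orf74 are low with construct 1 and not with construct 2, and E2F1, MCM10 and CCNB1 are lower with construct 1 than with construct 2.

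E2F factors bind DNA at a short core, so the promoters of 4 genes that fell and hold that core are shown, with each match in capitals. The letters searched were TTTCCCGC, TTTCGCGC, TTTGCCGC and TTTGGCGC on both strands, in windows from 250 bases before to 50 bases after the start site, from RefSeq on GRCh38.p14. A window counted once, however many matches it held or however they overlapped. The 250 bases before the start are printed 5′ to 3′ on the minus strand, which is the coding strand of each gene. E2F1 (chr20:33686386-33686635) has matches that begin 33 and 20 bases before the start, E2F2 (chr1:23531234-23531483) has 1 that begins 42 bases before it, MCM3 (chr6:52284743-52284992) 1 at 174 bases and LIG1 (chr19:48170345-48170594) 1 at 114 bases.
E2F1: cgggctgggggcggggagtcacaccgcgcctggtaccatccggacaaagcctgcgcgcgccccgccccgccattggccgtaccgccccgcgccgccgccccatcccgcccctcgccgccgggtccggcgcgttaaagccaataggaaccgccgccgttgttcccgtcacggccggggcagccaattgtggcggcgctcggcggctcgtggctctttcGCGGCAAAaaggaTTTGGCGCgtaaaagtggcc
E2F2: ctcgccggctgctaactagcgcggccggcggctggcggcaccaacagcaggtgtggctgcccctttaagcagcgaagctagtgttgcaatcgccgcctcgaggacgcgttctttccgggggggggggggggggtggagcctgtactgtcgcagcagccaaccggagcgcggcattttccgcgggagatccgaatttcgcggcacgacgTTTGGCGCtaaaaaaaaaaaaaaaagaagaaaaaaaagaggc
MCM3: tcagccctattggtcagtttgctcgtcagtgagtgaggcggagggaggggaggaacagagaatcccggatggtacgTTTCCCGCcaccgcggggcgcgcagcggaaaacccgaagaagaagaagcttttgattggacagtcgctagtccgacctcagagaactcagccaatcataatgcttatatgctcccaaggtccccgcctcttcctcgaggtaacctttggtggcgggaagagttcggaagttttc
LIG1: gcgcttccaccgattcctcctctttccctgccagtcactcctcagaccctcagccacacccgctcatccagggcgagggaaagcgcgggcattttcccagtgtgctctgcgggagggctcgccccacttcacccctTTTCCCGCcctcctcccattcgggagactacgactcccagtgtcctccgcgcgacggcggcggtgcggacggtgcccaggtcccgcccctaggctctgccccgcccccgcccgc
A match describes letters, not a bound site. Of all 27305 promoters 3.33% held a match, and of 9304 promoters of tested symbols above the floor 5.52% did. It was present in 5 of 11 promoters of the E2F and retinoblastoma list, in 7 of 16 of the origin licensing list, in 11 of 26 of the replication fork list and in 6 of 27 of the recombination list. Of the p53 target list, which had more genes called higher than lower, 4 of 17 promoters held it. The promoters of mitotic kinesins held the E2F core in 1 of 12 cases, but 10 of 12 held the cell cycle homology region (TTTGAA or TTCGAA). This element of genes expressed in G2 and mitosis was held by 16.6% of all promoters and 10.6% of those of tested symbols above the floor. None of the 26 replication fork promoters held it. Only 1547 of the 2066 symbols called lower, less than 80%, have a promoter in these windows, so a share over them would be partial and is not given. The 9304 promoters likewise stand for 12705 tested symbols above the floor, and the 17 of the p53 list for 23 genes. Those shares are partial too.

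Origin licensing loads the MCM helicase on DNA before S phase. Of 18 tested licensing genes 13 were called lower and only ORC4, named here after its values were seen, was called higher, with a list median of -0.72; without any 1 of 4A, 5A, 4B and 5B no licensing gene was called higher. MCM10, which helps to start the helicase, was at 13.5 and 13.3 FPKM in the controls and 5.82 and 6.05 FPKM with construct 1 (-1.18 ± 0.06, adjusted p = 5.39e-06). The helicase subunits MCM3, MCM4 and MCM5 fell to a like degree, by 1.04, 1.02 and 1.02 on the log2 scale: MCM3 was at 32.7 FPKM in each control and at 15.5 and 16.4 FPKM with construct 1. MCM4 was at 58.3 and 55.6 FPKM and then at 27.5 and 28.7 FPKM. MCM5 was at 52.2 and 55.0 FPKM and then at 26.7 and 26.1 FPKM. All lanes of these genes with construct 1 were about 1 log2 unit below the control lanes. The groups did not overlap, as in 1971 of the 2066 symbols called lower. CDC6 and ORC1, the loaders, were among the 13 with log2 fold changes of -1.0 and -1.05 (chosen for mention after seeing them).

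At the replication fork all 31 tested genes had a negative log2 fold change and 29 were called lower, with a median of -0.67. These counts and the median include RFC4, which was listed at 0 with construct 1. CDC45, a partner of the MCM helicase, was at 26.4 and 27.4 FPKM in the controls and 13.4 and 12.9 FPKM with construct 1 (-1.03 ± 0.06). CLSPN, a checkpoint mediator at the fork, was at 5.62 and 5.20 FPKM and then at 2.42 and 2.58 FPKM (-1.11 ± 0.06). PCNA, the sliding clamp, was at 205 and 194 FPKM and then at 113 and 115 FPKM (-0.81 ± 0.08). LIG1, which seals Okazaki fragments, fell by 0.91 ± 0.05 on the log2 scale from 24.5 and 25.4 FPKM to 13.4 and 13.1 FPKM. RFC4, a subunit of the clamp loader, was all-or-none: its control lanes read 41.7, 42.1, 43.3 and 45.6 FPKM, and all 4 construct 1 lanes were listed at 0. Its construct 2 lanes read 41.5, 41.3, 36.8 and 35.0 FPKM. A value of 0 in this table can be low expression or a failed estimate, so no fold change is given for RFC4.

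Nucleotide synthesis followed the same direction, with 20 of 28 tested genes called lower, none higher, and a median of -0.28; 13 to 15 were called lower when 1 of 4A, 5A, 4B and 5B was left out. TYMS, thymidylate synthase, was at 69.4 and 65.2 FPKM in the controls and 39.8 and 38.8 FPKM with construct 1 (-0.77 ± 0.04). RRM1, the large subunit of ribonucleotide reductase, was at 66.3 and 64.1 FPKM and then at 39.3 and 40.7 FPKM (-0.70 ± 0.04). Both enzymes supply DNA precursors, and their groups did not overlap, as in 1971 of the 2066 symbols called lower.

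Homologous recombination and Fanconi genes, which repair broken and crosslinked DNA, had 25 of 30 tested members called lower, none called higher, a negative log2 fold change in all 30 and a median of -0.54. RAD54L, a motor that drives strand exchange, was at 10.2 and 10.9 FPKM in the controls and 4.24 and 3.92 FPKM with construct 1 (-1.37 ± 0.11, adjusted p = 6.04e-05). BRCA1 was at 14 and 14.1 FPKM and then at 7.51 and 7.39 FPKM (-0.91 ± 0.05, adjusted p = 9.76e-06). FANCD2, the protein ubiquitinated at crosslinks, was at 12.3 and 12.4 FPKM and then at 6.89 and 6.90 FPKM (-0.84 ± 0.05). CHEK1, the kinase of the replication checkpoint, fell by 0.67 ± 0.05 on the log2 scale. RFWD3, a ubiquitin ligase that acts on the single-strand binding protein RPA, was at 17.5 and 17.7 FPKM and then at 7.24 and 7.46 FPKM (-1.26 ± 0.08).

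Among 17 tested cyclins, CDKs and their CDC25 phosphatases 11 were called lower and 3 higher, with a median of -0.37. CCNB1, the mitotic cyclin B1, was at 93.0 and 92.9 FPKM in the controls and 56.4 and 57.9 FPKM with construct 1 (-0.70 ± 0.05, adjusted p = 2.30e-05). CDC25A, the phosphatase that activates CDK2, was at 7.75 and 7.77 FPKM and then at 4.28 and 4.01 FPKM (-0.91 ± 0.05). CCND1, cyclin D1, was at 532 and 512 FPKM and then at 429 and 432 FPKM (-0.28 ± 0.06, adjusted p = 0.0106), a call lost without 4A, 4B or 5B. The 3 called higher, named after their values were seen, were CCNE1, which binds CDK2 at the entry to S phase, and the atypical cyclins CCNG1 and CCNG2, which are known as p53 and FOXO targets; without any 1 of 4A, 5A, 4B and 5B 1 gene of this list was called higher. Of 8 CDK inhibitors 3 were called higher and 1 lower. The 1 lower was CDKN2A (-0.17 ± 0.05, adjusted p = 0.0348), a call lost in 11 of 27 alternatives, among them those without 4A, 5A, 4B or 5B. CDKN1A, which encodes p21, was at 71.4 and 75.5 FPKM in the controls and 119 and 121 FPKM with construct 1 (0.71 ± 0.05, adjusted p = 3.75e-05). CDKN1C was at 5.30 and 4.41 FPKM and then at 9.79 and 9.09 FPKM, and CDKN2B was at 2.05 and 2.24 FPKM and then at 3.01 and 2.95 FPKM (0.47 ± 0.11, adjusted p = 0.0120), a call lost without 4A, 4B or 5B.

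Genes of mitosis were lower as a group. Of 27 mitotic kinases and spindle checkpoint genes 24 were called lower, of 12 mitotic kinesins 11, of 29 centromere and kinetochore genes 26 and of 13 cohesin and condensin genes 11, with none called higher and medians of -0.59, -0.59, -0.56 and -0.54. AURKB, the kinase of the chromosomal passenger complex, was at 234 and 248 FPKM in the controls and 135 and 137 FPKM with construct 1 (-0.82 ± 0.11, adjusted p = 0.000674). PLK1, a kinase of mitotic entry, was at 57.9 and 57.2 FPKM and then at 35.3 and 36.5 FPKM (-0.68 ± 0.04). MYBL2, which with the MuvB complex turns on mitotic genes, was at 35.6 and 36.1 FPKM and then at 20.4 and 19.6 FPKM (-0.84 ± 0.05). KIF18B, a kinesin that trims spindle microtubules, was at 15.9 and 16.5 FPKM and then at 9.16 and 9.21 FPKM. SKA3, of the outer kinetochore, fell by 1.00 ± 0.06 on the log2 scale from 10.1 and 9.48 FPKM to 4.81 and 4.95 FPKM. ZWINT, a kinetochore scaffold, was at 93.5 and 89.7 FPKM and then at 46.6 and 47.6 FPKM. NCAPH, a condensin I subunit, was at 12.5 and 12.9 FPKM and then at 6.93 and 6.95 FPKM. Each of these genes was lower in every construct 1 lane than in every control lane, as were 1971 of the 2066 symbols called lower.

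**Figure D4:**
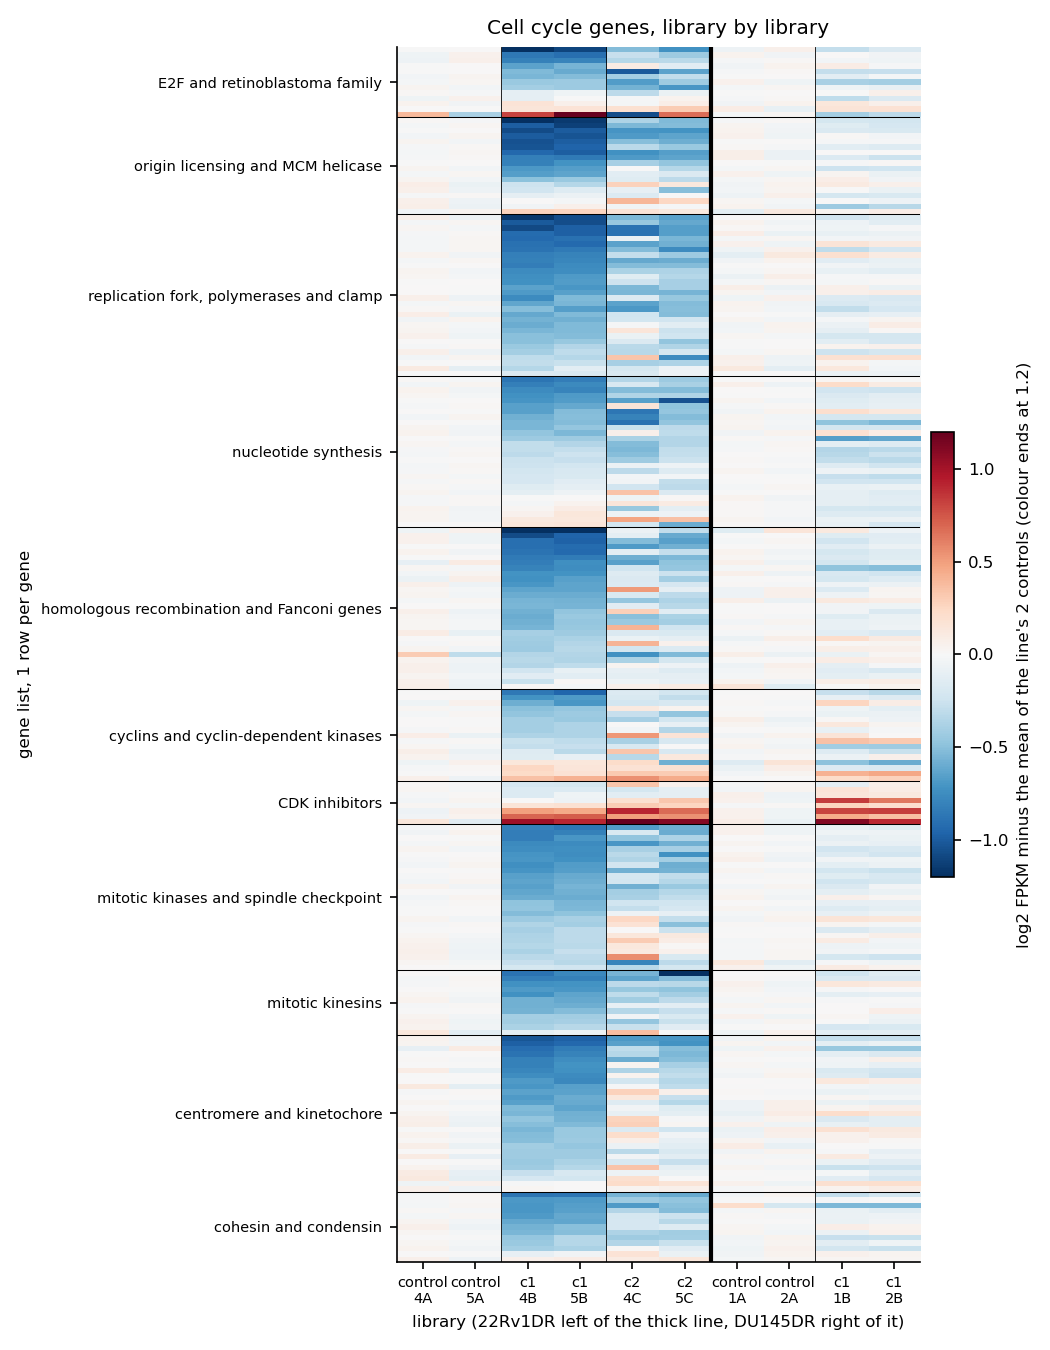
Log2 FPKM of the genes of the 11 cell cycle lists (rows) in 10 libraries (columns), relative to the mean of the line's 2 controls, with the colour scale ending at 1.2 log2 units either way and RFC4 left out. The columns of 4B and 5B are the bluest, and those of 4C and 5C are paler. The construct 1 columns of DU145DR, where the median over the cell cycle genes was -0.08, are close to white apart from some CDK inhibitors.

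Of 12 histone chaperones 6 were called lower and 1 higher (ASF1A, named after its values were seen), with a median of -0.42. CHAF1A, the large subunit of the chaperone that loads histones behind the fork, was at 27.2 and 27.9 FPKM in the controls and 14 and 14.1 FPKM with construct 1 (-0.97 ± 0.04, adjusted p = 3.58e-06). SSRP1, the FACT partner of SUPT16H, was at 119 and 121 FPKM and then at 70.1 and 72.3 FPKM (-0.75 ± 0.04). Among 19 DNA methylation and polycomb genes 6 were called lower and 2 higher (1 higher without any 1 of 4A, 5A, 4B and 5B), with a median of -0.10. DNMT1, the maintenance methyltransferase, was at 45.7 and 45.6 FPKM and then at 26.0 and 27.2 FPKM (-0.78 ± 0.05), and its guide UHRF1 was at 11.5 and 11.7 FPKM and then at 6.49 and 6.70 FPKM. EZH2, the polycomb methyltransferase, fell by 0.49 ± 0.07 on the log2 scale. Of 17 histone genes listed in these poly(A) libraries 7 were called higher and none lower, with a median of 0.19; without 1 of 4A, 5A, 4B and 5B the number was 3 to 5, and in the 22Rv1DR libraries alone it was 2. HIST1H1C, a linker histone, was at 27.4 and 28.9 FPKM and then at 55.5 and 51.3 FPKM (0.92 ± 0.12), with an adjusted p of 0.0638 in the 22Rv1DR libraries alone. Most replication-dependent histone messages lack a poly(A) tail, so only the tailed part is measured, and histone genes are close copies of each other.

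Of 89 tested genes of the nuclear pore, nuclear transport and lamina other than the POM121 pair 42 were called lower and 3 higher, with a median of -0.16. Of 30 tested nucleoporins other than the POM121 pair 17 were called lower and none higher, with a median of -0.16, and 9 to 10 were called lower when 1 of 4A, 5A, 4B and 5B was left out. NUP85, of the Y-shaped scaffold, was at 19.8 and 20.4 FPKM in the controls and 12.8 and 13.0 FPKM with construct 1 (-0.64 ± 0.05, adjusted p = 4.33e-05). NUP93, of the inner ring, was at 21.6 and 21.4 FPKM and then at 14.9 and 15.5 FPKM (-0.50 ± 0.07, adjusted p = 0.000715). NDC1, which like POM121 spans the nuclear membrane, was at 20.8 and 20.2 FPKM and then at 15.9 FPKM in each library (-0.36 ± 0.05, adjusted p = 0.000642). Of 17 importins 7 were called lower and 3 higher; the 3, named after their values were seen, were KPNA5, KPNA3 and TNPO1. Without 1 of the 4 libraries 4 to 5 importins were lower and 1 to 2 higher. KPNB1, the main import receptor, was at 115.5 and 114 FPKM and then at 88.4 and 91.4 FPKM (-0.35 ± 0.05, adjusted p = 0.000825). Of 26 exportin, Ran cycle and mRNA export genes 14 were called lower, none higher, with a median of -0.25 and with 8 to 10 lower when 1 of the 4 libraries was left out. CSE1L, which returns importin alpha to the cytoplasm, was at 75.4 and 73.1 FPKM and then at 58.7 and 60.0 FPKM. LMNB1, a lamin, led the 4 of 16 lamina genes called lower and was at 59.2 and 57.6 FPKM and then at 39.5 and 40.0 FPKM (-0.56 ± 0.04).

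Ribosome biogenesis factors, which make and process ribosomal RNA in the nucleolus, had 28 of 40 members called lower and none higher, with a median of -0.31. In the 22Rv1DR libraries alone 6 were called lower, and in the fit of all but the construct 2 libraries of 22Rv1DR 36 were. Leaving out 4A gave 17 lower, 5A 12, 4B 11 and 5B 16. DKC1, the pseudouridine synthase of small nucleolar particles, was at 39.8 and 39.6 FPKM in the controls and 26.4 and 26.8 FPKM with construct 1 (-0.58 ± 0.05, adjusted p = 6.85e-05). NCL, nucleolin, was at 299 and 289 FPKM and then at 229 and 231 FPKM (-0.36 ± 0.05). SR and hnRNP splicing factors had 15 of 28 lower and none higher, with a median of -0.26, among them SRSF1 at 37.8 and 35.5 FPKM and then at 23.9 and 24.9 FPKM (-0.58 ± 0.06). Cytosolic ribosomal protein genes had 10 of 77 higher and none lower, a share close to that of all symbols, with a median of 0.15, and 2 to 3 were higher when 1 of the 4 libraries was left out. Of the 77 genes 73 had a positive log2 fold change and 4 a negative one. In the fit of all but the construct 2 libraries of 22Rv1DR 38 of them were called higher, where 2645 of 13622 symbols were. In the 22Rv1DR libraries alone 3 were. RPL15 was at 297 and 293 FPKM and then at 375 and 369 FPKM (0.33 ± 0.04). The share of summed FPKM that this class takes, given above, was higher in 4B and 5B than in 4A and 5A, and its part in these values was not tested.

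Of 23 p53 target genes, which arrest growth or favour cell death, 11 were called higher and 1 lower (AEN, named after its values were seen), with a median of 0.22; 0 to 1 was lower without 1 of 4A, 5A, 4B and 5B. In the 22Rv1DR libraries alone 7 genes of this list were called higher and none lower. In the fit of all but the construct 2 libraries of 22Rv1DR 12 were higher and 4 lower. TP53INP1 was at 9.06 and 8.28 FPKM in the controls and 16.4 and 17.2 FPKM with construct 1 (0.96 ± 0.13, adjusted p = 0.000708). GADD45A, a growth arrest gene, was at 20.1 and 19.9 FPKM and then at 34.5 and 34.3 FPKM (0.78 ± 0.05, adjusted p = 1.27e-05). BTG2, an antiproliferative factor, was at 9.57 and 9.91 FPKM and then at 17.4 and 17.7 FPKM (0.85 ± 0.08). SESN1, a sestrin that restrains mTOR, rose by 0.72 ± 0.11 on the log2 scale. The list is shared in part with the CDK inhibitors (CDKN1A) and with the BCL2 family (PMAIP1), where 4 of 15 were higher and none lower. PMAIP1, the death-promoting protein NOXA, was at 11.4 and 10.6 FPKM and then at 16.3 and 15.6 FPKM, and MCL1, a survival protein, was at 66.8 and 65.7 FPKM and then at 83.8 and 84.3 FPKM.

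Of 20 AP-1 and immediate early genes, which respond within minutes to growth factors and stress, 12 were called higher and none lower, with a median of 0.37; 7 to 8 were higher without 1 of 4A, 5A, 4B and 5B. ATF3, a stress-induced member of the AP-1 circle, was at 27.1 and 27.5 FPKM in the controls and 53.9 and 53.8 FPKM with construct 1 (0.98 ± 0.18, adjusted p = 0.00354). JUN was at 30.9 and 30.6 FPKM and then at 57.6 and 57.1 FPKM (0.90 ± 0.10, adjusted p = 0.000365). JUNB was at 61.7 and 63.9 FPKM and then at 92.2 and 90.9 FPKM (0.54 ± 0.06). ZFP36, which destabilizes AU-rich messages, was at 13.8 and 13.9 FPKM and then at 23.0 and 24.1 FPKM (0.76 ± 0.06). The construct 1 libraries differed little from each other in these genes and lay above both controls. In the 22Rv1DR libraries alone the adjusted p was 0.121 for ATF3 and 0.0504 for JUN, and 2 of the 20 genes were called higher. In the fit of all but the construct 2 libraries of 22Rv1DR 14 were. Of these 20 genes 18 were above the floor on a lane of the 4 libraries. Of the 20 inflammatory genes under NF-kB only 9 were, and genes at the floor could not be called. Inflammatory genes under NF-kB, by comparison, had 1 of 20 higher (SOD2, adjusted p = 0.0222) and none lower; the SOD2 call was lost without any 1 of 4A, 5A, 4B and 5B and in the 22Rv1DR libraries alone.

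Glycolysis and hypoxia genes had 15 of 29 higher and none lower, with a median of 0.30, and 12 to 13 higher when 1 of the 4 libraries was left out. NDRG1 was at 25.6 FPKM in each control and at 48.6 and 50 FPKM with construct 1 (0.95 ± 0.05, adjusted p = 9.53e-06). ALDOC, an aldolase, was at 50.5 and 53.1 FPKM and then at 82.5 and 84.1 FPKM (0.69 ± 0.05, adjusted p = 2.21e-05). BNIP3, a mitophagy receptor induced by HIF-1, was at 57.3 and 52.0 FPKM and then at 77.7 and 77.3 FPKM (0.51 ± 0.06). ALDOA was at 835 and 848 FPKM and then at 1029 and 1018 FPKM, with an adjusted p of 0.226 under quantile normalization. In fatty acid metabolism 7 of 23 were higher (4 to 5 without 1 of the 4 libraries) and 4 lower. The other 12 were not called. Among the 7 higher, HADHB, of the mitochondrial trifunctional protein, was at 66.5 and 66.0 FPKM and then at 91.3 and 94.5 FPKM (0.49 ± 0.04). CAT, peroxisomal catalase, rose by 0.50 ± 0.05. The 4 lower, of which SCD and FASN were named after their values were seen, belong to synthesis: SREBF1, the regulator of lipogenic genes, FADS1, SCD and FASN. SREBF1 was at 9.15 and 8.47 FPKM and then at 4.87 and 5.61 FPKM (-0.75 ± 0.09, adjusted p = 0.000366). In the 22Rv1DR libraries alone 3 genes of the fatty acid list were higher and 2 lower. FOXO factors and genes under them had 6 of 16 higher and 1 lower (0 to 1 lower without 1 of the 4 libraries), the higher ones including GABARAPL1, of autophagy, at 14.8 and 14.6 FPKM and then at 23.4 and 24.2 FPKM, and CITED2 at 146 and 143 FPKM and then at 210 and 211 FPKM. Of 20 mTOR components and regulators 6 were called higher and 2 lower (1 to 2 lower without 1 of the 4 libraries). The higher ones included SESN1, a sestrin that restrains mTORC1, at 5.27 and 5.08 FPKM and then at 8.47 and 8.59 FPKM (0.72 ± 0.11, adjusted p = 0.00138). In the 22Rv1DR libraries alone 5 FOXO genes were higher and 1 lower, and 4 mTOR genes were higher and none lower. In the fit of all but the construct 2 libraries of 22Rv1DR these counts were 9 and 1, and 8 and 6.

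Androgen signalling genes did not move as a block. Of 27 tested genes of this list 6 were called higher and 6 lower, with a median of 0.00; without 1 of the 4 libraries 3 to 5 were higher and 3 to 4 lower. KLK4, a kallikrein under androgen control, was at 111 and 117 FPKM in the controls and 82.9 and 83.8 FPKM with construct 1 (-0.45 ± 0.05, adjusted p = 0.000435). KLK3, which encodes prostate-specific antigen, was at 2.23 and 1.73 FPKM and then at 1.38 and 1.55 FPKM; its adjusted p of 0.0474 was lost in 19 of 27 alternatives. NDRG1 is also on this list and rose, so members moved in opposite directions. Among luminal and epithelial genes, KRT8, a keratin of luminal cells, was at 380 and 383 FPKM and then at 527 FPKM in each library (0.47 ± 0.07, adjusted p = 0.00194), and CLDN1, a tight junction protein, was at 8.04 and 8.15 FPKM and then at 12.2 and 13.2 FPKM (0.65 ± 0.05). KRT19 was listed at 0 in both controls and read 1.5 and 1.75 FPKM with construct 1. Of 28 epithelial genes 6 were called higher and none lower, and of 28 mesenchymal and TGF-beta responsive genes 8 were higher and none lower, or 4 to 5 higher without 1 of the 4 libraries. The transcription factors SOX4 (21.4 FPKM in each control, 33.3 and 32.9 FPKM with construct 1) and ELF3 (49.8 and 48.7 FPKM, then 69.3 and 71.0 FPKM) were higher, and ITGA5, the fibronectin receptor subunit, was at 8.53 and 9.24 FPKM and then at 14.5 and 15.0 FPKM (0.73 ± 0.06). KRT8 had an adjusted p of 0.0559 in the 22Rv1DR libraries alone.

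Several other lists had calls in both directions. Endoplasmic reticulum chaperones had 7 of 20 lower and 3 higher. SDF2L1 was at 101 and 99.7 FPKM in the controls and 71.5 and 75.6 FPKM with construct 1 (-0.45 ± 0.05), while DNAJB9, a BiP co-chaperone, was at 1.98 and 1.93 FPKM and then at 6.55 and 6.75 FPKM (1.77 ± 0.14, adjusted p = 4.00e-05), with an adjusted p up to 0.0615 when 1 lane of each library was used. Interferon-stimulated genes had 6 of 31 higher and 2 lower: IFIT2 was at 2.04 and 1.86 FPKM and then at 2.81 and 2.89 FPKM, against the fall of OAS3. Of 17 tubulin genes 7 were lower and 2 higher. Amino acid response genes had 4 of 20 higher, led in level by DDIT4 at 124 and 125 FPKM and then 187 and 186 FPKM (0.59 ± 0.06), and 5 lower, led by the arginine transporter SLC7A1 at 18.8 and 18.5 FPKM and then 10.7 and 10.8 FPKM (-0.79 ± 0.04). Nuclear-encoded respiratory chain genes had 3 of 57 higher and 2 lower, and NRF2 antioxidant genes 3 of 22 in each direction. Leaving out 1 of 4A, 5A, 4B and 5B gave 4 to 5 chaperones lower, 3 to 6 interferon-stimulated genes higher, 2 to 3 amino acid response genes higher and 2 to 5 lower, 0 to 1 respiratory chain genes higher and 0 to 2 lower, 1 interferon-stimulated gene lower, 0 to 2 NRF2 genes lower and 0 to 1 tubulin genes higher. Aminoacyl-tRNA synthetases, which charge tRNAs, had 8 of 20 lower and none higher (4 to 6 lower without 1 of the 4 libraries). YAP and TEAD target genes had 7 of 18 higher and 2 lower (3 to 4 higher and 1 lower without 1 of the 4 libraries).

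To see where construct 1 differed from construct 2 in the same line, the difference itself was tested. Both constructs were set against the same 2 control libraries, so their own fold changes are given side by side only. With construct 2, 1981 symbols were called higher than control (14.5%) and 2802 lower (20.6%). Between the constructs, 583 symbols were higher with construct 1 (4.28%) and 994 lower (7.30%), and the total of 1577 was 71 in a fit of the 22Rv1DR libraries alone and lay between 223 and 5983 when a library was left out. G3BP2 was at 54.7 and 44.3 FPKM with construct 2, close to its controls, and the difference of construct 1 from construct 2 was -1.85 ± 0.09 (adjusted p = 8.34e-06). C11orf74 was at 13.6 and 9.96 FPKM with construct 2 (difference -2.36 ± 0.15, adjusted p = 8.49e-05). UBR1 was at 8.59 and 6.77 FPKM, ESYT1 at 59.8 and 45.1 FPKM and RAD54L at 10.1 and 8.61 FPKM with construct 2, with differences of -1.29 ± 0.10, -1.09 ± 0.10 and -1.19 ± 0.11. These were among the strongest falls with construct 1. Against the shared controls, the construct 2 log2 fold changes were 0.09 for G3BP2, -0.23 for C11orf74, -0.14 for UBR1 and -0.18 for RAD54L, none past the threshold, and -0.31 for ESYT1 (adjusted p = 0.0462). G3BP2 differed by -1.69 without 4C and -2.0 without 5C, and C11orf74 by -2.13 and -2.58. RFC4, too, was listed at 0 with construct 1 and not with construct 2. In the fit of the 22Rv1DR libraries alone the adjusted p of the difference was 0.0619 for C11orf74 and 0.0618 for RAD54L.

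Cell cycle genes were lower with construct 1 than with construct 2 as well. Their median log2 fold change against the shared controls was -0.53 with construct 1 and -0.25 with construct 2, and in the difference 120 of 226 were called lower and 3 higher. That count was 46 without 4B, 59 without 5B and 10 in the 22Rv1DR libraries alone. E2F1 was at 17.8 and 15.9 FPKM with construct 2 (difference -0.52 ± 0.07, adjusted p = 0.00280). In the 22Rv1DR libraries alone none of the 13 E2F and retinoblastoma genes was called in the difference. CCNA2, cyclin A2, was at 40.5 and 39.4 FPKM in the controls, 28.1 and 29 FPKM with construct 1 and 43.4 and 41.2 FPKM with construct 2 (difference -0.57 ± 0.04, adjusted p = 0.000452). CCNB1 was at 82.0 and 75.7 FPKM with construct 2 (difference -0.46 ± 0.05), and MCM10 at 10.4 and 9.26 FPKM (difference -0.72 ± 0.06, adjusted p = 0.000452). PLK1 was at 38.7 and 38.8 FPKM with construct 2, and its difference of -0.11 ± 0.04 had an adjusted p of 0.127. PDK4 was at 93.3 and 109 FPKM with construct 2, a difference of 0.03 ± 0.07. AP-1 and immediate early genes were lower with construct 1 than with construct 2 in 10 of 20 cases, with median log2 fold changes against control of 0.37 and 0.97, but without 4B or without 5B only 1 was called, and without 5C 16 were. KRT8 was at 358 and 417 FPKM with construct 2 (difference 0.45 ± 0.07, adjusted p = 0.00833). In the 22Rv1DR libraries alone none of the 28 epithelial genes and none of the 20 AP-1 and immediate early genes was called in the difference.

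The same construct in DU145DR gave 1662 symbols higher (12.2%) and 1038 lower (7.62%) than the DU145DR controls. The change of POM121 was smaller there: it was at 21.6 and 21.3 FPKM in the controls and 13.4 and 13.5 FPKM with construct 1, a log2 fold change of -0.67 against -2.30 in 22Rv1DR (difference -1.63 ± 0.08, adjusted p = 1.24e-05). Tested as an interaction, 885 symbols had a higher effect in 22Rv1DR (6.50%) and 1625 a lower one (11.9%). Across the 11345 symbols above the floor in both lines the effects had a Pearson correlation of 0.28, a description across genes, which are not independent and share their libraries. Of the 1631 symbols called higher in 22Rv1DR, 324 were called higher and 55 lower in DU145DR, and of the 2066 called lower, 404 were called lower and 110 higher. Because the depth of knockdown differed, line and knockdown cannot be told apart in these differences.

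**Figure D5:**
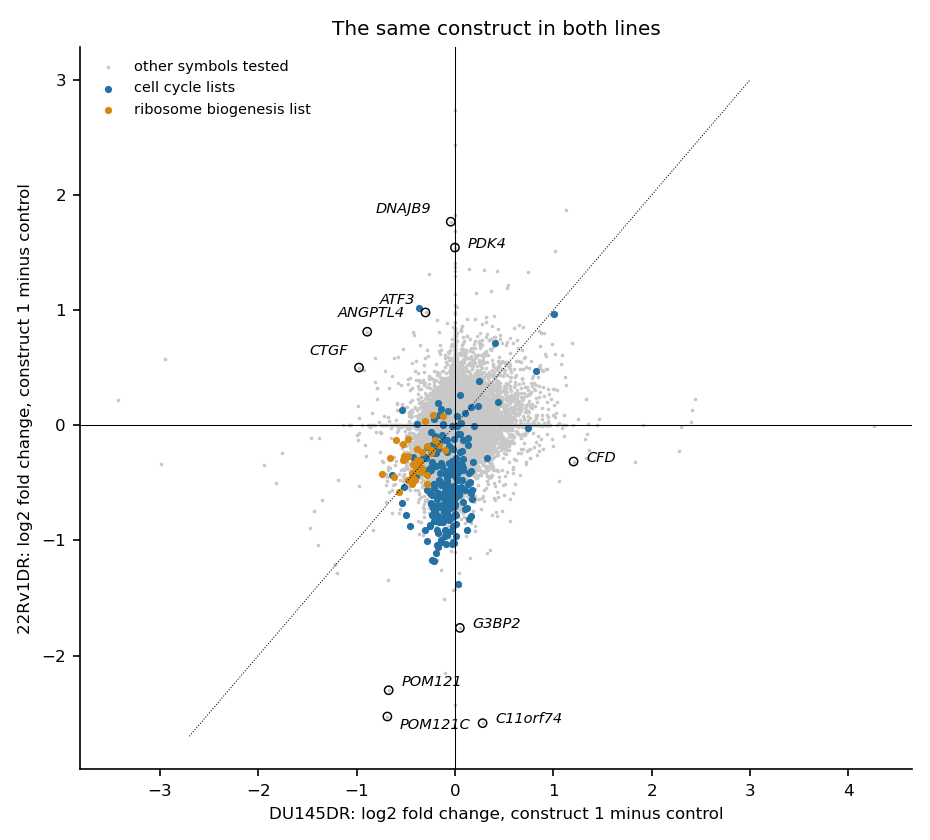
Log2 fold change with construct 1 in DU145DR (horizontal) against that in 22Rv1DR (vertical), 1 point per symbol tested, with cell cycle lists in blue, ribosome biogenesis in orange and the dotted line at equal effects. Cell cycle genes lie below 0 in 22Rv1DR (median -0.53) and near 0 in DU145DR (median -0.08), while ribosome biogenesis genes are below 0 in both (medians -0.31 and -0.38).

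The cell cycle genes set the lines apart. Their median effect was -0.53 in 22Rv1DR and -0.08 in DU145DR, and the interaction was lower in 22Rv1DR for 139 of 226 and higher for 5, with 107 to 124 lower when 1 of 4A, 5A, 4B and 5B was left out. E2F1 was at 26.9 and 25.2 FPKM in the DU145DR controls and 26.2 and 25.2 FPKM with construct 1 (difference between the lines -0.86 ± 0.09, adjusted p = 0.000589). MCM4 was at 124 and 126 FPKM and then at 124 FPKM in each library (difference -1.0 ± 0.06, adjusted p = 6.45e-05). PCNA was at 167 and 196 FPKM and then at 206 and 194 FPKM (difference -0.96 ± 0.12). In DU145DR the log2 fold change was -0.02 for E2F1 and -0.02 for MCM4, and neither passed the test. Some cell cycle genes did change there. Of 28 nucleotide synthesis genes 11 were called lower in DU145DR (median -0.15), and of 18 licensing genes 4, with none higher. Only 2 of 31 replication fork genes were lower, and 5 of 8 CDK inhibitors were higher. Of all symbols 7.62% were called lower in DU145DR and 12.2% higher. Ribosome biogenesis factors were lower in either line: in DU145DR 35 of 40 were called lower with a median of -0.38, and the interaction was called for 3. DKC1 was at 81.7 and 76.7 FPKM in the DU145DR controls and 52.1 and 54.3 FPKM with construct 1. Glycolysis and hypoxia genes had a median of 0.00 in DU145DR and 13 of 29 had a higher effect in 22Rv1DR, as 8 of 20 AP-1 and immediate early genes did. Without 1 of 4A, 5A, 4B and 5B these counts were 8 to 9 and 5. Endoplasmic reticulum chaperones were higher in DU145DR in 10 of 20 cases with a median of 0.24, and 10 of 20 had a lower effect in 22Rv1DR: PDIA4, a disulfide isomerase, was at 200 and 205 FPKM and then at 152 and 158 FPKM in 22Rv1DR, and at 146 and 143 FPKM and then at 198 and 191 FPKM in DU145DR (difference -0.81 ± 0.08, adjusted p = 0.000451). G3BP2 was at 56.5 and 57.5 FPKM and then at 59.6 and 58.5 FPKM in DU145DR, so its fall was seen in 22Rv1DR with construct 1 and not in the other groups given here. TP53INP1, CDKN1C and BTG2 rose in both lines, with DU145DR log2 fold changes of 0.97, 1.01 and 0.69, and their differences between the lines had adjusted p values of 0.958, 0.889 and 0.370. PDK4, SPINK1, ELF3 and KLK4 were listed at 0 in the DU145DR libraries and cannot be compared.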

How the data were processed

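RNA-seq of 24 samples was deposited by the authors as 1 table of log2 FPKM per gene symbol; TopHat aligned the reads and Cufflinks estimated the levels, per the submitters' processing notes; the builds listed there are hg19 and mm10. The deposited values are log2 because all 305952 values above 0 turn into numbers of 6 significant digits as powers of 2, and values at or under 1 FPKM are listed at 0 (52.8% of all). RNA was poly(A)-selected and the library kit does not keep the strand, per the labels' protocols, so overlapping antisense genes cannot be told apart. The table has 27026 lines for 25277 symbols; 605 symbols occur more than once, and the copy with the highest mean stands for each. Counts and depth are unknown, and no counting error is given.

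Lanes of each of 12 libraries were averaged on the log2 scale, and a library's FPKM is 2 to that power. Symbols with both lanes above the floor in at least 2 libraries (13622) were tested with limma 3.58.1 in R 4.3.3 with trend and robust moderation, 1 mean for each of 6 groups and no block. Tests are 2-sided, with Benjamini-Hochberg adjustment over all symbols tested and a threshold of 0.05. The ± of a log2 fold change is its moderated standard error, with n = 2 libraries per group. The script was tested on simulated data. Where leaving out a library leaves a group with 1 sample, that sample is assumed to vary like the other groups.

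Genes are named by a rule: POM121, POM121C, E2F1, MYC and GATA2; the 12 highest and 12 lowest fold changes among called symbols with no overlap of lanes, a mean of at least 5 FPKM and no all-or-none values; the 6 largest rises and falls in FPKM; from each list, up to 4 members of smallest p; and the 5 highest and 5 lowest differences between constructs and between lines. Some genes that the rule names are not reported here. The comparison, the members and the lists were chosen with earlier results of these data known. Alternatives were an added 0.5 or 1 FPKM, other filters, other scalings, fits of fewer libraries, single lanes, array weights, a replicate block and leaving out each library. Promoter windows come from RefSeq on GRCh38.p14, and transcript length and GC content from GENCODE 29.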

Additional observations from a re-analysis of the deposited data

Results flagged for a closer look

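The effect of construct 1 differed between 22Rv1DR and DU145DR for 2510 symbols, by a test of the difference itself (limma, interaction, adjusted p under 0.05). For the genes named here the values are the 22Rv1DR effect minus the DU145DR effect on the log2 scale. The targeted POM121 differed by -1.63 and its copy POM121C by -1.84. Lower effects in 22Rv1DR were also found for C11orf74 (-2.87), G3BP2 (-1.81) and CFD (-1.52), the complement protease factor D, whose 22Rv1DR change alone did not pass the test (adjusted p = 0.0722). Higher effects in 22Rv1DR were found for DNAJB9 (1.81), ANGPTL4 (1.70), a lipoprotein lipase inhibitor, CTGF (1.48), a matrix-associated YAP target, ATF3 (1.28) and DUSP1 (1.24), a MAP kinase phosphatase. The DNAJB9 difference was lost when 1 lane of each library was used, with an adjusted p of 0.157 or 0.194. CTGF was at 50.7 and 51.1 FPKM in the DU145DR controls and 25.9 FPKM in each construct 1 library, and at 1.31 and 1.45 FPKM and then at 1.90 and 2.01 FPKM in 22Rv1DR. Groups of 2 libraries are too small for a check of single samples that stand apart.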

How the results depend on the processing

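POM121 kept its direction and call in all 27 alternatives. Of 239 named genes called in the comparison, 143 were called in every alternative, 96 lost the call in at least 1 and 0 reversed. Counts of calls moved with which libraries set the spread. In the 22Rv1DR libraries alone 611 symbols were higher, 874 lower, and 71 differed between the constructs. In the fit of all but the construct 2 libraries 2645 were higher, 3230 lower, and 4677 differed between the lines. Array weights gave 2772, 3348, 131 and 4836 for higher, lower, the constructs and the lines. Leaving out 1 library gave 761 to 2643 higher, 1033 to 3232 lower, 223 to 5983 between the constructs and 1294 to 4677 between the lines, against 1631, 2066, 1577 and 2510. The lower-numbered and higher-numbered lanes alone gave 887 and 874 between the constructs. The share of calls that were higher was 44.1%, and 51.0% after quantile normalization and 50.9% when summed FPKM without ribosomal protein genes was set equal. With a replicate block 1571 were higher and 2028 lower. What the shared library numbers stand for is not given in the sources used here. Deviations of same-numbered control and construct 1 libraries of 22Rv1DR had a correlation of -0.10. For control and construct 2 it was -0.05, and for construct 1 and construct 2 it was 0.10. Depth is unknown, and the floor of 1 FPKM hides changes below it.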
